A study of Homo sapiens with 2 samples.

Results

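The genes described here are 10 core genes of the canonical Wnt pathway: LRP5, LRP6, AXIN1, AXIN2, APC, CTNNB1, TCF7, LEF1, TCF7L1 and TCF7L2. A RUNX1 ChIPseq peak was counted for a gene when its summit, the base with most tags, lay in the RefSeq interval of the gene or within 50 kb of either end. By this rule 24 of the 13591 peaks in the list were found at these genes. The cells were MCF10A, a non-tumorigenic line of human mammary epithelium, in which the RUNX1 gene had been deleted and a lentiviral RUNX1 gene, inducible by doxycycline, had been added. Cells with a deleted gene were picked as single-cell colonies, so such a line is 1 clone. Both the RUNX1 ChIP library and the library of input DNA came from these cells after 1 µg/ml doxycycline for 24 hours. RUNX1 thus came from the vector and not from its own gene. The paper reports that ChIPseq of endogenous RUNX1, tried before, gave no strong binding on chromatin, and that this inducible line was then used. There was 1 library of each kind, with 80338845 ChIP tags and 87410774 input tags kept, and no comparison below has a replicate or a test. A peak list holds no expression values, so the cell type could not be checked against markers.

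In the absence of a Wnt signal, the scaffold proteins AXIN and APC hold beta-catenin, the product of CTNNB1, in a complex that marks it for destruction. Binding of a Wnt protein to a Frizzled receptor and to the co-receptors LRP5 or LRP6 stops this, and beta-catenin enters the nucleus, where it joins the DNA-binding proteins TCF7, LEF1, TCF7L1 and TCF7L2. In the mammary gland the pathway is known for its part in the maintenance of stem and basal cells. RUNX1 has been linked to AXIN1 in studies of oestrogen receptor-positive breast cancer cells.

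A RUNX1 protein recognises DNA with the core TGTGGT or TGCGGT, and the TCF and LEF proteins recognise CTTTGAA or CTTTGAT. These 4 strings were searched on both strands in the windows from 250 bases before to 50 after each RefSeq start site (GRCh38.p14). Start sites were listed for 8 of the 10 genes, in 12 windows, and not for AXIN2 or LRP6. A RUNX core stood in 5 of the 12 windows, at 4 genes, and a TCF and LEF string stood in 0. Over the windows of all genes, 19.6% held a RUNX core and 6.86% a TCF and LEF string. The stretches with a RUNX core are shown because they hold the letters known for RUNX proteins next to the start sites of these genes. The capitals mark the core, or its reverse complement ACCGCA, and each is written 5′ to 3′ on the strand of the gene.
LEF1, chr4:108166341-108166370, minus strand, core at 57 bases before the start site: aaaaagaaagtgTGTGGTtttgagggcggg
APC, chr5:112737687-112737716, plus strand, core at 186 bases before the second listed start site: ctaggcaggctgTGCGGTtgggcggggccc
TCF7, chr5:134115475-134115504, plus strand, core at 126 bases before the first listed start site: ggtgcctcccccACCGCAgctcaggaggcg
TCF7, chr5:134123635-134123664, plus strand, core at 29 bases after the second listed start site: ctacgaaggatgTGCGGTgagactggagaa
TCF7L1, chr2:85133273-85133302, plus strand, core at 107 bases before the start site: gtgtgcgcgcgcACCGCAgctctccgggtt

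None of these 5 stretches lay in a peak. In all, 0 of the 12 windows were overlapped by a peak, where 580 of the 35116 windows of all genes, or 1.65%, were. AXIN2 and LRP6 have no window in this count. A match of 6 letters is a description of the sequence and does not mark a site, and the sequences under the 24 peaks themselves were not analysed here.

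Of the 10 genes, 8 had at least 1 peak, and AXIN2 and LEF1 had 0. By the same rule 52.1% of 20037 protein-coding genes had a peak, and so did 57.0% of the 7096 that are as long as these genes, from 33.1 to 217.4 kb. A peak inside the gene was found for 6 of the 10, against 18.7% of all protein-coding genes. A peak with a pileup, the number of tags over the summit, of at least 30 was found for 3 of the 10, namely AXIN1, LRP5 and TCF7L2, against 8.48%. The shares of 18.7% and 8.48% are over genes of every length and were not matched to the lengths of these 10. The genes were few and were chosen with earlier results known, so these counts are descriptions. The map of the peaks shows that they were spread unevenly over the genes, with 13 of the 24 at LRP5 and TCF7L2.

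**Figure D1:**
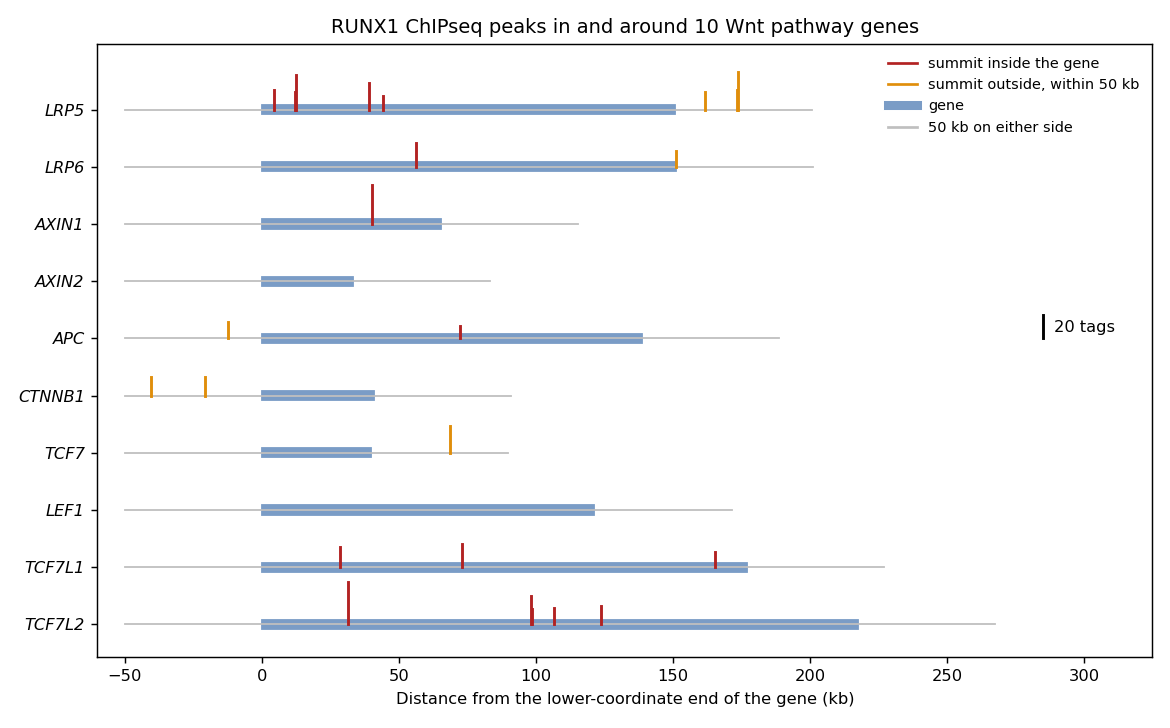
Position and height of the peaks at the 10 genes. The horizontal axis is the distance in kb from the lower-coordinate end of each gene, bars are the genes, thin lines reach 50 kb past either end, and the height of each vertical line is the pileup of 1 peak in tags, against the scale bar. LRP5 carries 8 lines and TCF7L2 5, and AXIN2 and LEF1 carry none.

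LRP5 is one of the pair of co-receptors that bind Wnt together with Frizzled. It spans 68298412 to 68449275 on chromosome 11 (GRCh38) and had 8 peaks, the most of the 10 genes. At least 8 peaks were found at 110 of 20037 protein-coding genes, or 0.549%. Inside the gene were 5 peaks, with pileups of 17, 15, 30, 23 and 12 tags in order along the chromosome. The tallest of these, at 68310800 to 68310965, had 30 tags (exact 95% Poisson interval 20.2 to 42.8), a fold enrichment of 8.25 over the local background and a −log10 q of 16.9, where q is the p-value of the peak caller after its correction for multiple tests. Its summit lay 1734 bp before the RefSeq start site of LRP5, and that of the 15-tag peak lay 264 bp farther away, at 1998 bp. These were the only 2 peaks within 5 kb of a listed start site of their own gene among the 22 peaks at genes with one. The interval of LRP5 reaches upstream of this start site, so both count as inside. So does the 17-tag peak, whose summit lay 9603 bp before the start site.

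The 23-tag peak of LRP5, at 68337564 to 68337735, lay 25.03 kb past the start site of LRP5 and 0.581 kb past that of LOC124902698, which starts within LRP5. The other 3 peaks counted for LRP5 lay 10.9, 22.5 and 22.9 kb beyond its upper end. They had pileups of 15, 17 and 33 tags, and each was nearest to PPP6R3, a regulatory subunit of protein phosphatase 6. The 15-tag peak lay 0.594 kb before the start site of PPP6R3, and the other 2 lay inside that gene, 420 bp apart. The 33-tag peak (22.7 to 46.3), at 68472026 to 68472326, had a fold enrichment of 7.27. The local input level under it and under the 23-tag peak was 1.67 times the genome-wide background, the highest level at the 24 peaks, shared with 1 peak of CTNNB1.

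LRP6, the other co-receptor, spans 12116025 to 12267044 on chromosome 12 and had 2 peaks. The first, at 12172144 to 12172339, lay inside the gene, 56.3 kb from its lower end, with 21 tags (13.0 to 32.1) and a fold enrichment of 5.81. The second had 14 tags (7.65 to 23.5) and a fold enrichment of 4.35, and its summit lay 225 bp beyond the upper end of the gene. Of the 8 peaks outside a gene, this one was the closest to it. No start site of LRP6 was listed, so the distance of this peak from one was not measured. LRP6 and LRP5 have similar lengths, 151.0 and 150.9 kb, yet LRP6 had 0.797 peaks per 100 kb of its window and LRP5 had 3.19.

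AXIN1 is the scaffold on which the destruction complex of beta-catenin is built. It spans 287440 to 352723 on chromosome 16, is read from the minus strand and had 1 peak. This peak covered 327375 to 327740 and was 366 bp wide, the widest of the 24. It had 34 tags (23.5 to 47.5), a fold enrichment of 9.41 and a −log10 q of 21.1, and 5.23% of all peaks in the list were taller. The summit lay inside the gene, 25.2 kb past its start site. The nearest other peaks were 144 kb below the gene and 102 kb above it, so the peak stood alone. The local input level there was 1.24 times the genome-wide background.

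AXIN2, which does the work of AXIN1 and is itself switched on by Wnt signalling, had no peak. It spans 65528563 to 65561648 on chromosome 17 and is the shortest of the 10 genes, at 33.1 kb. The nearest peaks in the list were 214 kb below the gene, with 17 tags, and 685 kb above it, with 19 tags. A gene without a peak is one where no region passed the q limit. The lowest pileup in the whole list was 10 tags, and weaker enrichment is not listed.

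APC, the other scaffold and a tumour suppressor of the colon, spans 112707498 to 112846239 on chromosome 5 and had 2 peaks, both low. That at 112695200 to 112695362 had 14 tags (7.65 to 23.5) and a fold enrichment of 4.68, and its summit lay 12.2 kb before the first listed start site. That at 112779554 to 112779677 had 11 tags (5.49 to 19.7) and a fold enrichment of 3.75, the lowest pileup of the 24. It lay inside the gene, 41.8 kb past the second listed start site, and 98.2% of all peaks were taller. Its −log10 q of 2.17 was also the lowest of the 24. The intervals of both peaks overlap, and a difference between their heights was not tested. Next to the single peak of AXIN1 both were lower, and the interval of the taller one ended at 23.49 tags, where that of AXIN1 began at 23.55.

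CTNNB1, which encodes beta-catenin, spans 41199505 to 41240443 on chromosome 3. It had 2 peaks, neither inside the gene, both on the side of its start site. Their summits lay 40.3 and 20.6 kb before the start site, and both had 16 tags (9.15 to 26.0). Despite the same height, the fold enrichment was 3.64 for the far peak and 5.31 for the near one. The local input level was 1.67 times the genome-wide background, or 3.68 tags, under the far peak. It was at the background, 2.20 tags, under the near one. The background is the lowest value that this level can take, and the counting error of the input was not measured. The far peak was also narrow, at 76 bp, where the near one was 310 bp wide. CTNNB1 was the protein-coding gene nearest to both.

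TCF7L2 is one of the TCF proteins that carry beta-catenin on DNA. It spans 112950247 to 113167678 on chromosome 10, the longest of the 10 genes at 217.4 kb, and had 5 peaks, all inside. At least 5 peaks were found at 676 protein-coding genes, or 3.37%. In order along the gene the pileups were 37, 25, 13, 14 and 16 tags. The first, at 112981558 to 112981865, was the tallest of the 24, with 37 tags (26.1 to 51.0), a fold enrichment of 11.9 and a −log10 q of 27.5. It lay 31.5 kb past the first listed start site over an input level at the genome-wide background, and 3.69% of all peaks were taller. The other 4 formed a group from 98.2 to 124 kb into the gene. The 25-tag peak (16.2 to 36.9) and the 13-tag peak (6.92 to 22.2) were 225 bp apart, and the group lay 52.6 to 78.2 kb before the second listed start site. The interval of the first peak lay above those of the 13-tag, 14-tag (7.65 to 23.5) and 16-tag (9.15 to 26.0) peaks and overlapped that of the 25-tag peak.

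TCF7L1, a family member known mainly as a repressor, spans 85133392 to 85310387 on chromosome 2. It had 3 peaks, all inside, with 18, 20 and 13 tags. They lay 28.4, 72.9 and 165 kb past its start site, with fold enrichments of 5.93, 6.56 and 3.73. The 3 Poisson intervals, from 6.92 to 30.9 tags in all, overlap one another, and differences in height between these peaks were not tested.

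TCF7 spans 134108218 to 134148210 on chromosome 5 and had 1 peak by the rule, with 23 tags (14.6 to 34.5) and a fold enrichment of 6.12. Its summit lay 28.6 kb beyond the upper end of TCF7 and inside SKP1, a subunit of SCF ubiquitin ligases, 0.174 kb past the start site of SKP1. The nearest peak on the other side lay 53.4 kb from TCF7, just outside the 50 kb limit, with 24 tags and VDAC1 as its nearest gene. The input level at the counted peak was 1.33 times the genome-wide background. LEF1, the remaining member of this family, spans 108047548 to 108168932 on chromosome 4 and had 0 peaks. The nearest were 151 kb below it, with 18 tags, and 71.6 kb above it, with 15 tags.

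**Figure D2:**
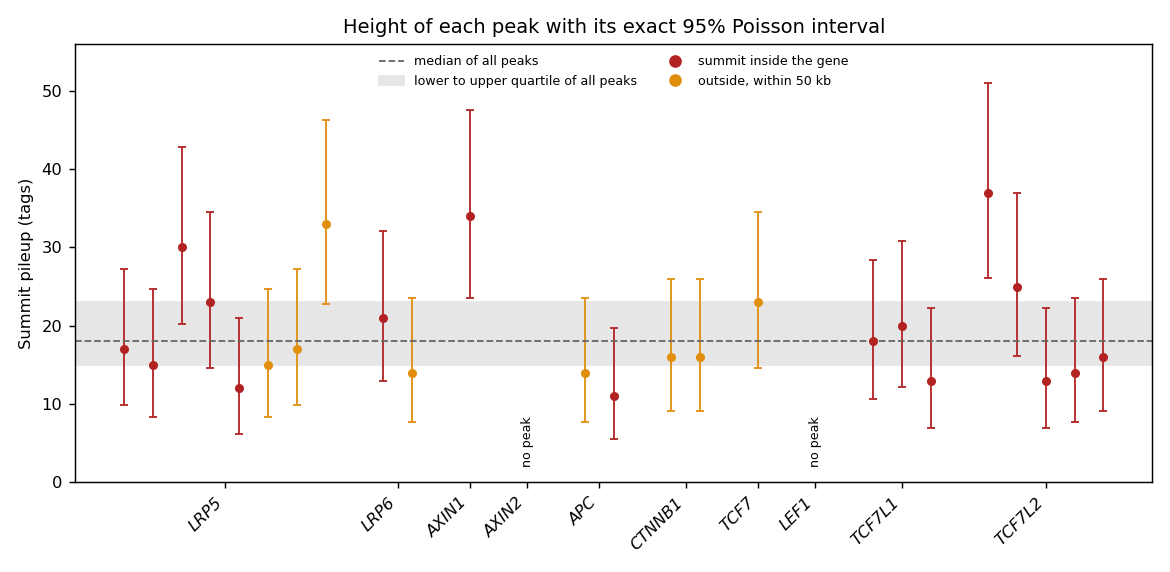
Pileup in tags (vertical axis) of each of the 24 peaks by gene, with exact 95% Poisson intervals that cover counting error only. The dashed line is the median of all peaks, 18 tags, and the grey band runs from 15 to 23 tags, from the lower to the upper quartile. The peaks with 37 tags at TCF7L2, 34 at AXIN1, and 30 and 33 at LRP5 have intervals wholly above the median.

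The plot of heights shows that these peaks resembled the list as a whole. The median pileup was 16.5 tags at the 10 genes and 18 over all peaks, with 9 of the 24 above 18, 14 below and 1 equal. The median fold enrichment was 5.27 against 5.06, the median −log10 q was 6.32 against 5.90 and the median width was 169 against 153 bp. The local input level was within 1% of the genome-wide background of 2.20 tags at 9 of the 24 peaks, or 37.5%, and at 39.5% of all peaks. Pileups of at least 30 tags were reached by 4 of the 24, or 16.7%, and by 9.88% of all peaks.

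By position the 24 peaks fell into 16 inside a gene of the 10 and 8 within 50 kb outside. For 20 of them the gene counted was also the nearest protein-coding gene, and for the other 4 the nearest was PPP6R3 or SKP1. Of the 22 peaks at genes with a listed start site, 0 lay within 1 kb of it and 19 lay more than 10 kb away. The other 2, both at LRP6, could not be measured in this way. The summit of 1 of them lay only 225 bp from the upper end of LRP6. The co-receptors had 10 peaks, the TCF and LEF genes 9, the destruction complex genes 3 and CTNNB1 2. Summits lay less than 1 kb apart in 3 pairs, 2 of them at LRP5 and 1 in TCF7L2. The counts in this paragraph were not made over all peaks. They describe the 24 peaks and do not show a trait particular to these genes.

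**Figure D3:**
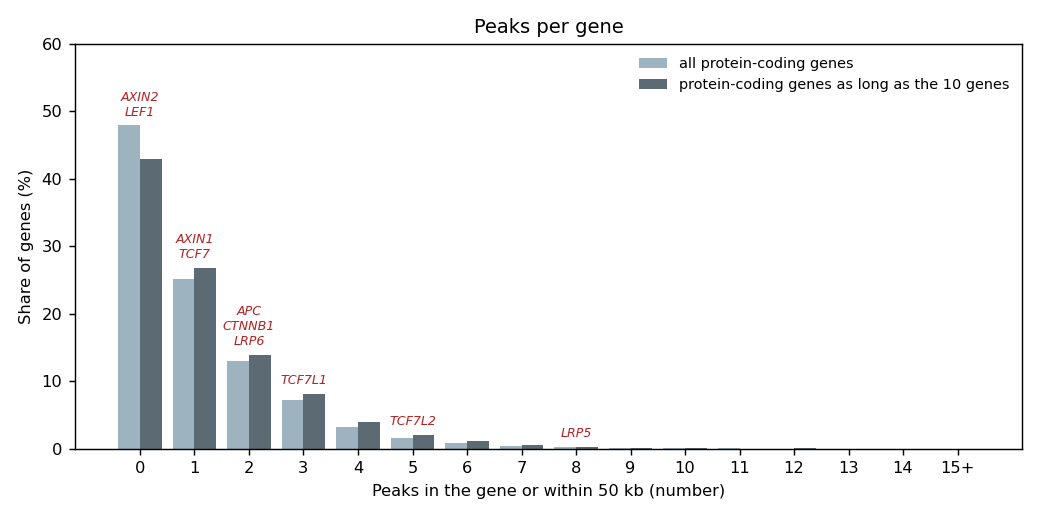
Share of genes in percent (vertical axis) by the number of peaks in the gene or within 50 kb (horizontal axis), for all 20037 protein-coding genes and for the 7096 as long as the 10 genes, which are named above their number of peaks. AXIN2 and LEF1 are in the tallest class, 0 peaks, and LRP5, with 8, is far to the right.

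Per 100 kb of window, gene plus 50 kb on either side, the 10 genes together had 1.12 peaks, against 0.649 for all protein-coding genes and 0.656 for those of like length. Without LRP5 it was 0.849. The median gene of the 10 had 2 peaks, and the median protein-coding gene 1.

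To place these genes in their pathway, 86 other Wnt genes were listed by role. A peak was found for 60 of the 86, or 69.8%, with 144 distinct peaks, beside 52.1% of all protein-coding genes. A peak inside the gene was found for 27 of the 86, beside 18.7% of all protein-coding genes. A peak of at least 30 tags was found for 14, beside 8.48% of all protein-coding genes. None of these shares was matched for gene length. The plot of roles shows the highest share among the ligands, with 17 of 19, and the lowest among the genes filed as target genes, with 1 of 4. The Wilson interval for these 4 genes, 4.56 to 69.9%, holds the 52.1% of all protein-coding genes. It also overlaps the interval for the ligands, 68.6 to 97.1%. Each gene was filed under 1 role, so a Wnt target filed under another role is not among the 4. The share thus describes these 4 genes and not Wnt targets in general. Genes that lie side by side share peaks, so that the genes are not independent of one another.

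**Figure D4:**
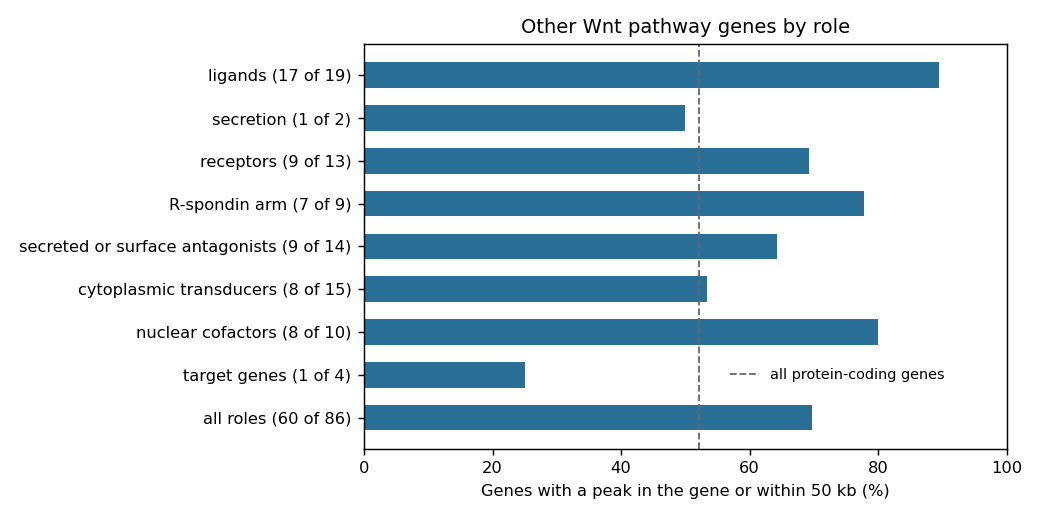
Share of genes in percent (horizontal axis) with a peak in the gene or within 50 kb, for the 86 other Wnt pathway genes by role, with the number of genes in brackets. The dashed line is the share of all protein-coding genes, 52.1%. Ligands reach 89.5% and the 4 genes filed as target genes 25.0%.

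Among the ligands, the secreted Wnt proteins, only WNT2 and WNT8A had no peak. A peak inside the gene was found for 7 of the 19, beside 18.7% of all protein-coding genes. Most ligands were thus counted only through peaks within 50 kb outside, some of them inside another gene. WNT1 and WNT10B are neighbours and shared the tallest, with 48 tags (35.4 to 63.6) and a fold enrichment of 13.0, which lay inside ARF3. They also shared a peak of 31 tags (21.1 to 44.0), 0.990 kb from WNT10B. WNT5B had 30 tags (20.2 to 42.8) at 0.573 kb before its start, and WNT9B 35 tags (24.4 to 48.7) at 29.3 kb, in the interval that the RefSeq table gives for LRRC37A2. For secretion, PORCN, which adds the lipid to Wnt proteins, had 33 tags at 21.4 kb, where FTSJ1 was nearer, and WLS had 0 peaks.

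Of the receptors 9 of 13 had a peak, the tallest at RYK, an atypical Wnt receptor, with 36 tags (25.2 to 49.8) 3.16 kb from the gene and 32 tags (21.9 to 45.2) inside it. R-spondins raise the amount of Wnt receptor on the cell by removing the ubiquitin ligases RNF43 and ZNRF3, and 7 of the 9 genes of this arm had a peak. RSPO2 held the tallest of all the Wnt genes, inside the gene, with 57 tags (43.2 to 73.9) and a fold enrichment of 13.4. RSPO1 had 51 tags (38.0 to 67.1) and a slightly higher fold enrichment, 13.8, but at 39.1 kb and nearest to AIRIM. LGR6, an R-spondin receptor, had 49 tags (36.3 to 64.8) and a fold enrichment of 11.7 inside the gene. The local input level was 1.51 times the genome-wide background at the RSPO2 peak, 1.25 times at the RSPO1 peak and 1.48 times at the LGR6 peak. The part of the input in these heights was not tested.

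Peaks overlapped the start-site windows of 2 of these genes, RNF43 and FZD5, out of 80 windows listed for the 86. The windows are fewer than the genes, so some genes have none in this count. The 2 with a peak are 2.5% of the windows, near the 1.65% over the windows of all genes. A peak of 29 tags (19.4 to 41.6) at BTRC overlapped no listed window. Its summit lay 0.144 kb below the lower end of BTRC, with a fold enrichment of 9.37. At RNF43 the whole peak lay in the window, with its summit 129 bp before the start site, 23 tags (14.6 to 34.5) and a −log10 q of 12.2. Another peak of RNF43 had 35 tags (24.4 to 48.7) and lay inside the gene, with a fold enrichment of 6.43 over an input level 2.09 times the background. The first is printed because it is a peak at a Wnt gene whose sequence could be read in full. It covers 58402774 to 58402923 on chromosome 17 and is written 5′ to 3′ on the minus strand, that of the gene, with the 41 bases centred on the summit in capitals. None of the 4 strings occurs in it.
RNF43, chr17:58402774-58402923: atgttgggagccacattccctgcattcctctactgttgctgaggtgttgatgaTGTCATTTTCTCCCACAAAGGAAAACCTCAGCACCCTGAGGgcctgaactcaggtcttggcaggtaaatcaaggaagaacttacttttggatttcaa

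At FZD5, a Frizzled receptor, a peak of 11 tags (5.49 to 19.7) with a fold enrichment of 3.75 covered the start site, and its summit lay 69 bp past it. This peak held a RUNX core at 32 bases past the start site, in capitals in the following stretch, which is shown as the only core found in a peak among these windows.
FZD5, chromosome 2, minus strand: ccgtgagtccgcTGTGGTcgccgccgcgcg

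Secreted or surface antagonists had a peak in 9 of 14, the tallest with 28 tags (18.6 to 40.5), 10.7 kb from SFRP1. Of the cytoplasmic transducers 8 of 15 had one, and the tallest, 39 tags (27.7 to 53.3), was counted for NKD2 at 49.95 kb, at the edge of the window. In the RefSeq table GTF2H2C_2 was nearer to it, at 6791 bp. Of the nuclear cofactors 8 of 10 had one. The beta-catenin partner BCL9 had 31 tags (21.1 to 44.0) inside the gene, CTNNBIP1, an inhibitor of beta-catenin, had 30 tags (20.2 to 42.8) inside, and the corepressor gene CTBP1 had 32 tags (21.9 to 45.2) at 34.2 kb, inside SPON2. Among the target genes MYC, CCND1 and TNFRSF19 had 0 peaks. SP5 had 26 tags (17.0 to 38.1) at 26.4 kb, where the fold enrichment was only 3.63 over an input level 2.92 times the background.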

How the data were processed

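RUNX1 ChIPseq and input libraries of MCF10A cells, 1 of each, were aligned by the authors with Bowtie2 to hg38, per the submitters' processing notes in the labels. Per the file headers, the authors called peaks with MACS 2.1.2 at a q-value limit of 0.05. Tags of 54 bp were extended to 74 bp, and duplicates beyond 1 tag a position were removed. The background was the highest of several levels, among them genome-wide, 1 kb and 10 kb levels, after the input had been scaled down to the ChIP library. The deposited pileup is a signal: it counts the extended ChIP tags that cover the summit. The deposited fold enrichment is a ratio, pileup plus 1 over local background plus 1. The deposited q is a −log10 value. The local input level was computed from pileup and fold enrichment.

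Gene intervals and start sites came from RefSeq tables (GRCh38.p14), in which 96 of 96 symbols were matched. Exons were not told apart. Assignment was tested on simulated peaks with Python 3.11.15, pandas 2.3.3 and SciPy 1.17.1. Poisson intervals are exact and cover counting error only.

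The members, the list of 86 genes, the settings and the naming rule were chosen with earlier results of these data known. By that rule all 10 members are named, the nearest protein-coding gene of each of their peaks, and from the other list the gene with the tallest peak in each role and every gene with a peak of at least 30 tags. FZD5, BTRC, genes with 0 peaks, other neighbours and further genes of the closing section were chosen after their values were seen. The settings tried were a minimum fold enrichment of 5, a stricter q limit of 0.01, the gene body alone, 5 or 100 kb on either side, overlap of any base, merging within 1 kb and the nearest gene only.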

Additional observations from a re-analysis of the deposited data

How the results depend on the processing

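Of 26 alternatives over 4 results, 23 left the value within 1.5 times, or for the highest pileup within its counting interval. Members with a peak ranged from 6, with gene bodies alone or 5 kb on either side, to 9 with 100 kb, which brought in LEF1. Under these settings the share of all protein-coding genes with a peak was 18.7%, 24.8% and 68.2%, where it was 52.1% with 50 kb. The highest pileup stayed at 37 tags under all 6 settings tried for it. That peak lies inside TCF7L2 with a fold enrichment of 11.9 and a −log10 q of 27.5, so the stricter settings could not remove it. Only the 100 kb windows or the overlap rule could have changed this value. The unchanged values are part of the 23. Peaks at the members fell from 24 to 14 when a minimum fold enrichment of 5 was set, since weaker peaks are dropped. Other Wnt genes with a peak fell from 60 to 27 with gene bodies alone and to 34 with 5 kb on either side, since the windows are smaller, and the share of all protein-coding genes fell with them. With 1 library of each kind, no spread between replicates could be measured, and low peaks such as the 11-tag peak in APC have wide counting intervals (5.49 to 19.7).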

Other observations

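Several of the 86 other Wnt genes had many peaks. CTNNBIP1 had 6 peaks, all inside the gene, with 13 to 30 tags. ROR1, a receptor of noncanonical Wnt proteins, had 7, also all inside, with 15 to 24 tags. WNT3A had 6 with 17 to 28 tags, of which 3 lay inside. CSNK1D, a kinase of the casein kinase 1 family, had the most, 9 with 12 to 29 tags, but only 1 lay inside the gene, and that one lay in SLC16A3 as well. NOTUM, which removes the lipid of Wnt proteins, had 5 with 12 to 25 tags, all outside the gene and nearest to SIRT7 or ASPSCR1. These genes were picked for their number of peaks, and no test was made.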
